A study of Mus musculus with 6 samples.

Results

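Neurotensin and 6 genes that mark lymphatic vessels were followed through 6 expression libraries made from cells of the mouse colon. The 7 genes were Nts, Prox1, Flt4, Lyve1, Pdpn, Mmrn1 and Reln, and they were taken as every probe set of the array whose only gene symbol was one of these names. That gave 13 probe sets, 1 for Nts and 12 for the lymphatic genes, and all 7 genes were among the 18193 genes of the comparison. The genes were proposed with the values of these libraries already known. They were selected on their log2 values in all 6 libraries, in particular on the differences between replicate numbers, so their levels are given as a description.

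The cells came from mice of the strain Mapttm1(EGFP)Klt/J, which carry EGFP at the Mapt locus, the gene of the neuronal microtubule protein tau. All mice of both groups had also received fluorescent cholera toxin subunit B in the celiac ganglion and were killed 3 to 4 days later. Myenteric cells were sorted by fluorescence into 3 libraries labelled EGFP-positive, called colonic neurons in the labels, and 3 labelled EGFP-negative, called myenteric cells. Each biological replicate pooled the cells of 2, 4 or 6 mice, without a statement of which replicate had which number, and the age of the mice was not given in the sources used here. The comparison by label asks which transcripts differ between the sorted fractions. The comparison by replicate number asks whether Nts follows the lymphatic genes from one number to another. No label says that a number marks the same mice or the same day in both groups.

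Lymphatic vessels drain fluid, fat and immune cells from the gut wall and run between its muscle layers as well as in the mucosa. PROX1 is the transcription factor that specifies lymphatic endothelium, FLT4 is the receptor through which VEGF-C and VEGF-D make these vessels grow, and LYVE1 is a hyaluronan receptor on the cell surface. PDPN is a mucin-type glycoprotein, while MMRN1 and RELN are secreted glycoproteins. Several of these genes are not restricted to lymphatics: LYVE1 is also carried by some tissue macrophages, PDPN by mesothelial and stromal cells, MMRN1 by platelets and RELN by some neurons. Neurotensin is a short peptide cut from a larger precursor and is best known in the gut as a product of enteroendocrine cells and of neurons.

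The RefSeq promoter table of build GRCm38.p6 held 7 windows for 6 of the 7 genes, each with 250 bases before and 50 bases after an annotated start of transcription. The windows of Nts, Flt4 and Mmrn1 are shown because Nts differed in its pattern from the other pair, and capitals mark matches to any of 5 motifs searched on both strands. The AP-1 motif was searched as TGANTCA. The cAMP response element was searched as TGACGTCA. The motif of GATA factors was searched as AGATAA. The forkhead motif was searched as TGTTTAC. The TATA box was searched as TATAAA. No match overlapped another.
Nts, chr10:102490369-102490668, minus strand: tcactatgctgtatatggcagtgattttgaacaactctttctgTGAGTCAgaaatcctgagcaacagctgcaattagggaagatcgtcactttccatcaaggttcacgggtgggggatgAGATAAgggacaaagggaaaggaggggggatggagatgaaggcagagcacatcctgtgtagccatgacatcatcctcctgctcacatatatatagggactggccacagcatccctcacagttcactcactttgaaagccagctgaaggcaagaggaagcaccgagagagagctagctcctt
Flt4, chr11:49609429-49609728, plus strand: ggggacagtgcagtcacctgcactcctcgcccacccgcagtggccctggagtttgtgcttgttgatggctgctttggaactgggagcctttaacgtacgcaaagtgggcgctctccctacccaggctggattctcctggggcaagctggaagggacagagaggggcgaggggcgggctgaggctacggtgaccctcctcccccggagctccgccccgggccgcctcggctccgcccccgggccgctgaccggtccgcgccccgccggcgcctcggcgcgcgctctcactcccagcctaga
Mmrn1, chr6:60944067-60944366, plus strand: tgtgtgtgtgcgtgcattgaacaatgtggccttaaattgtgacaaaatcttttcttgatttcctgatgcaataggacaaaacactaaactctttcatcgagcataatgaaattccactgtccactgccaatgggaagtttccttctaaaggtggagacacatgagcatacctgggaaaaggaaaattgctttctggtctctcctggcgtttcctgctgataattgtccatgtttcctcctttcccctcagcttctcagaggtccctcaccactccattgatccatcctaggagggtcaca
The Nts window held an AP-1 match that began 207 bases upstream of the start and a GATA match that began 131 bases upstream. Of all 32851 promoter windows, 7.81% held the AP-1 motif and 11.2% the GATA motif. The windows of Flt4 and Mmrn1, and that of Reln, held no match. The forkhead motif, present in 3.65% of all windows, matched once in that of Pdpn, and the TATA box, present in 13.6%, matched once in 1 of the 2 Prox1 windows. The cAMP response element, present in 1.79%, matched in no window of these genes. GC content was 49.0% for Nts and 44.3% for Mmrn1, against 70.3% for Flt4 and 80.7% for Reln and a median of 52.7% over all windows. A match describes the letters of a window and does not show that a factor binds there.

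The libraries had 6182 to 7621 of 45101 probe sets above 6 on the log2 scale, fewest in EGFP-negative replicate 1. Probe sets for a bacterial transcript that was not added, TrpnX, read 1.00 to 1.48 and gave the background. Mapt, taken as a check of the labels, read 5.55 in the EGFP-positive replicate 3 and 1.32 to 1.64 in the other 5 libraries. Its signal in the libraries labelled EGFP-positive 1 and 2 thus went against their label. At these numbers the neuronal markers below were not higher under the EGFP-positive label either. The macrophage and B cell lists below did have lower means under that label there, so Mapt alone does not settle the labels. Libraries of the same number deviated together from the means of their labels (r across genes 0.36, 0.32 and 0.42 for numbers 1, 2 and 3). Numbers therefore pair the libraries. Tests by label leave the number out unless stated, and the count with the number as a block is added where it differs by over 1.5 times. Values below are on the deposited log2 scale, in the order of replicates 1, 2 and 3.

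Nts was well above background in 4 libraries and at background in the other 2. It read 7.10, 6.41 and 1.33 under the EGFP-positive label and 7.42, 6.64 and 1.48 under the EGFP-negative label. Both libraries numbered 3 lay within the range of the TrpnX probe sets, and the 2 labels differed by at most 0.32 at any number. The mean of both replicate 3 libraries minus the mean of the other 4 was -5.49, the largest such deficit among the 6092 genes that reached a log2 value of 6 in at least 1 library. Since the low values are at background, this difference is a lower limit. In sorted bulk material, fewer cells of a type and less RNA per cell cannot be told apart.

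Prox1, the regulator of lymphatic identity, was dim. Its brightest probe set read 4.26, 3.93 and 1.73 under the EGFP-positive label and 2.87, 2.79 and 1.69 under the EGFP-negative label. Both replicate 3 libraries were lowest and near background, and at numbers 1 and 2 the EGFP-positive library was the higher one. The other 2 Prox1 probe sets stayed between 0.92 and 1.99, too close to background to be compared.

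Flt4, the growth factor receptor, was well above background throughout. Its values were 7.56, 8.57 and 4.27 under the EGFP-positive label and 7.50, 8.50 and 5.77 under the EGFP-negative label. Replicate 2 was highest and replicate 3 lowest under both labels. A second Flt4 probe set stayed between 1.59 and 2.16.

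Lyve1, the hyaluronan receptor, had the same order of libraries at a higher level. It read 8.72, 10.72 and 6.46 under the EGFP-positive label and 9.01, 10.63 and 7.65 under the EGFP-negative label. The second Lyve1 probe set read 8.67, 9.69 and 5.53 against 8.49, 9.33 and 6.31, again with replicate 2 highest and replicate 3 lowest. Both probe sets thus showed the pattern. Lyve1 was the only member with more than 1 probe set exceeding 3.

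The secreted proteins showed it too. Mmrn1 read 7.92, 10.01 and 5.36 under the EGFP-positive label and 8.45, 9.49 and 6.34 under the EGFP-negative label. Reln read 8.19, 9.78 and 5.38 against 7.70, 9.39 and 6.50. Both genes were highest in the replicate 2 libraries and lowest in the replicate 3 libraries. Their second probe sets were dim, at 1.24 to 2.16 for Mmrn1 and 1.27 to 1.36 for Reln.

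Pdpn was abundant everywhere and varied least of the 7 genes. It read 10.11, 10.18 and 9.09 under the EGFP-positive label and 10.06, 9.31 and 9.50 under the EGFP-negative label. Its range over the 6 libraries was 1.09, against 2.57 to 6.08 for the other members, and the replicate 3 libraries were not both lowest.

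**Figure D1:**
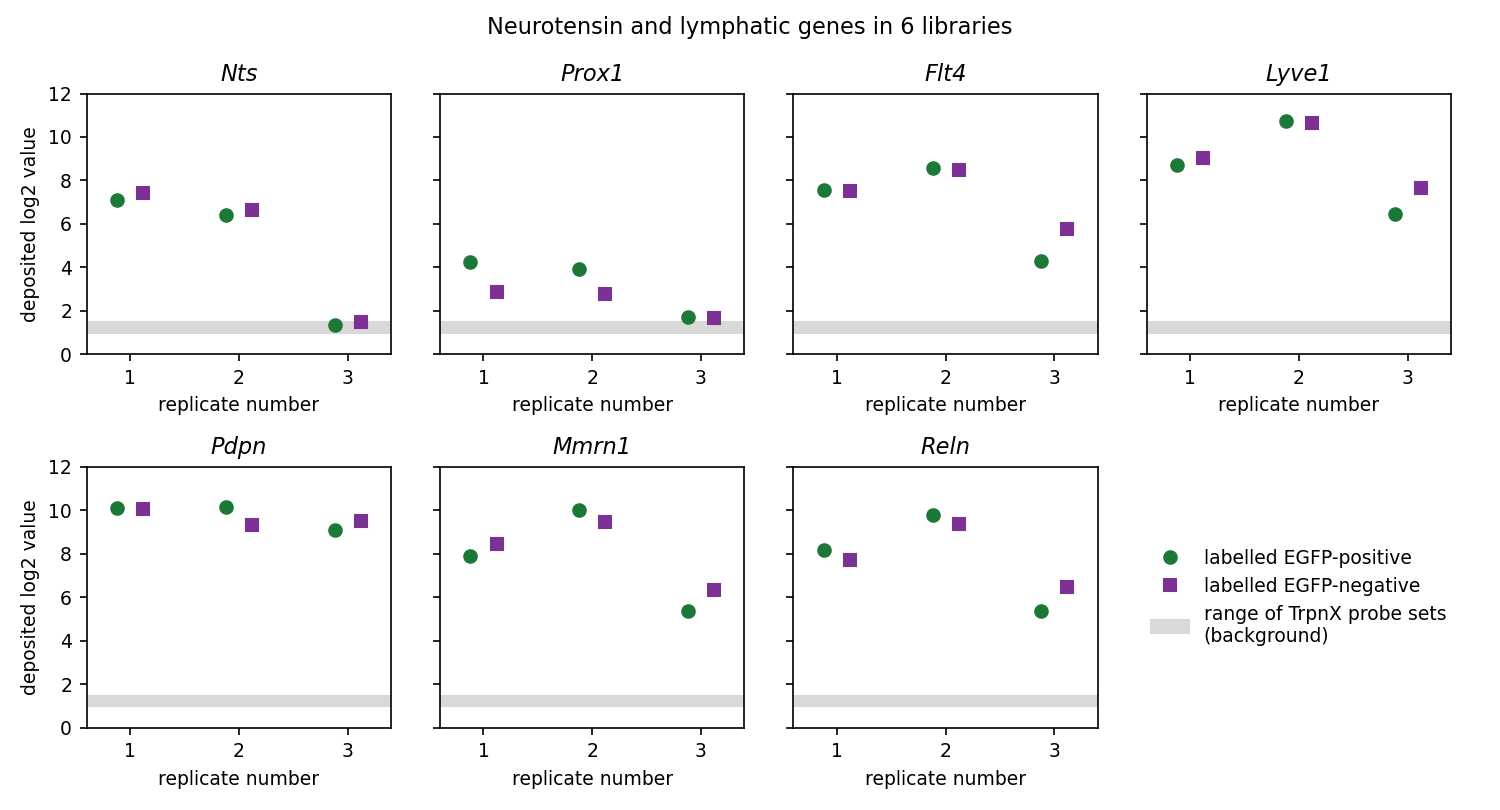
Deposited log2 values of the 7 genes (brightest probe set of each) by replicate number, with a circle for each library labelled EGFP-positive and a square for each labelled EGFP-negative; the grey band is the range of TrpnX background probe sets, 1.00 to 1.48. Nts falls into that band in both replicate 3 libraries, while Flt4, Lyve1, Mmrn1 and Reln peak in replicate 2 and stay above the band in replicate 3.

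By EGFP label, none of the 7 genes passed the test. Their log2 differences, EGFP-positive minus EGFP-negative, ran from -0.46 for Lyve1 to 0.86 for Prox1, with a median of -0.23 against -0.02 over all genes. Nts had a difference of -0.23 (SE 2.21), from 4.95 ± 3.15 (SD, n = 3) against 5.18 ± 3.23 (SD, n = 3). Lyve1 had one of -0.46 (SE 1.28). Prox1 had one of 0.86 (SE 0.75), which was 0.38 without EGFP-positive replicate 1 and 1.65 without EGFP-positive replicate 3. Leaving out 1 library makes the numbers unbalanced between labels. Within a number, the EGFP-positive library was higher in Prox1 by 0.040 to 1.39. For all 7 the adjusted p was 1.00 (limma, Benjamini-Hochberg over 18193 genes), 0 of 7 passed, and 0 had an unadjusted p under 0.05. The same test called 0% of all genes, with 893 (4.91%) at an unadjusted p under 0.05. None of the 7 had groups that did not overlap, as 9.11% of all genes did. With the replicate number as a block, which called 0% of all genes as well and left 7.39% at an unadjusted p under 0.05, the SE of Nts was 0.12 and that of Lyve1 0.29, and adjusted p-values began at 0.675 for Prox1.

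Nearly all of the variation of Nts lay between replicate numbers. They took up 99.8% of its sum of squares about the mean, against 0.196% between labels. The share between numbers was 95.3% for Mmrn1, 94.6% for Lyve1, 94.2% for Reln and 92.1% for Flt4, and it was 72.0% for Prox1 and 57.5% for Pdpn. Over the 6092 genes that reached a log2 value of 6 the median share was 55.0%. In a fit across all genes for differences between the 3 numbers, 0% of 18193 genes passed (limma F test, Benjamini-Hochberg, smallest adjusted p = 0.113), and 2739 had an unadjusted p under 0.05. As the genes were chosen for this contrast, nothing is read from it for single members.

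**Figure D2:**
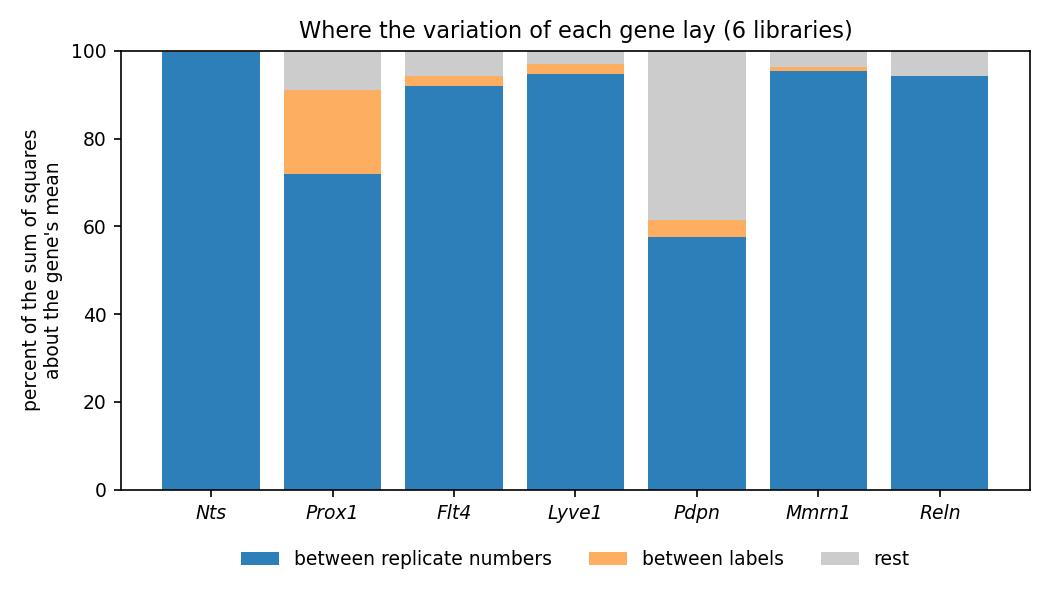
Share of each gene's sum of squares over 6 libraries, in percent, that lay between replicate numbers, between EGFP labels, or in neither. The share between numbers runs from 57.5% for Pdpn to 99.8% for Nts.

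The gap between labels was not alike at every number for the lymphatic genes. At numbers 1 and 2 the mean of Lyve1, Flt4, Mmrn1 and Reln was 8.10 and 9.77 in the EGFP-positive libraries and 8.16 and 9.50 in the EGFP-negative ones. At number 3 it was 5.37 against 6.56, and each of the 4 genes was lower in the EGFP-positive library, by 0.99 for Mmrn1, 1.12 for Reln and 1.18 for Lyve1 and by most for Flt4. The EGFP-positive replicate 3 was also the library with Mapt signal. With 1 library of each label per number, this difference was not tested.

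Nts shared the low replicate 3 with the lymphatic genes but not the order of replicates 1 and 2. Both replicate 3 libraries were below the other 4 for 6 of the 7 genes, with Pdpn the exception. Among members that reached a log2 value of 6, this held for 5 of 6, against 9.21% of all such genes. The same 5 were lower by at least 2 in replicate 3, which 1.51% of such genes were. From replicate 1 to replicate 2, however, Nts was lower by 0.68 in the EGFP-positive and 0.77 in the EGFP-negative libraries. Lyve1 was higher there by 2.00 and 1.62, Mmrn1 by 2.09 and 1.04, Reln by 1.59 and 1.69, and Flt4 by 1.02 and 1.00. Nts therefore ordered the numbers 1, 2, 3 from high to low under both labels, as 7.58% of genes reaching 6 did. Prox1 had the same order, though its replicates 1 and 2 hardly differed under the EGFP-negative label, at 2.87 and 2.79. Flt4, Lyve1, Mmrn1 and Reln had the order 2, 1, 3, found in 2.1% of genes reaching 6. Both replicate 2 libraries were above the other 4 for these 4 genes, as for 7.47% of genes reaching 6, and both replicate 1 libraries were above the other 4 for Nts, as for 10.6%. These orders were compared after the values were seen, and the genes were chosen for this contrast, so nothing is read from their shares.

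The level of Nts relative to the 4 co-varying lymphatic genes differed between numbers 1 and 2 under both labels. Nts minus the mean of Lyve1, Flt4, Mmrn1 and Reln was -1.001 and -3.36 at numbers 1 and 2 under the EGFP-positive label and -0.75 and -2.86 under the EGFP-negative label. At number 3 Nts lay in the background range, so only upper limits can be given, -4.03 and -5.09. The lymphatic genes read 4.27 to 7.65 there. These are differences between probe sets, so their sizes have a meaning only from library to library.

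Likeness to Nts was measured as Pearson's r over the 6 libraries. It was 0.89 for Flt4, 0.85 for Mmrn1, 0.82 for Prox1, 0.81 for Reln, 0.79 for Lyve1 and 0.70 for Pdpn, so 4 of 6 lymphatic genes had an r of at least 0.8. Prox1 is one of the 4 and did not reach 6, and 5.88% of genes reaching 6 had such an r. Among 6091 such genes Flt4 ranked 174, Mmrn1 257, Reln 330 and Lyve1 399. Lyve1, Flt4, Mmrn1 and Reln were closer to each other, with r of 0.97 to 0.99 in their 6 pairs. The 6 libraries fell into separate sets by Nts, 4 high and 2 at background, and 2 libraries share each number. Leaving out EGFP-positive replicate 3 left 1 gene with an r of at least 0.8, and leaving out EGFP-negative replicate 3 left 2. Without both libraries numbered 3 the sign turned, to -0.95 for Flt4, -0.99 for Reln, -0.90 for Lyve1, -0.87 for Mmrn1 and -0.20 for Prox1, over 4 libraries, and Pdpn had an r of 0.25. With Spearman's rho 0 of 6 reached 0.8. The likeness of Nts to these genes thus rests on the replicate 3 libraries.

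**Figure D3:**
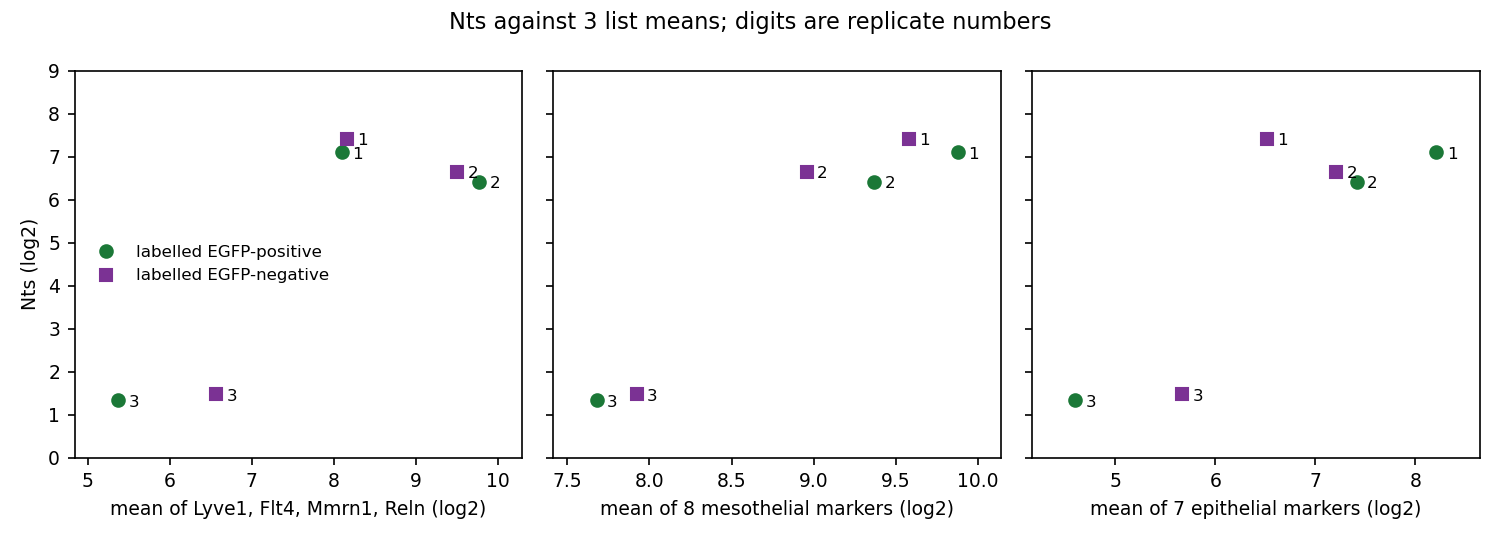
Nts (vertical axis, log2) against the mean of Lyve1, Flt4, Mmrn1 and Reln, of 8 mesothelial markers and of 7 epithelial markers (horizontal axes, log2), with 1 point per library and its replicate number beside it. Among the 4 libraries with Nts above background, those numbered 1 lie above and to the left of those numbered 2 in the lymphatic plot and above and to the right in the mesothelial plot.

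Other genes of lymphatic vessels divided in the same comparison. Of 7 transcription factors, 4 had both replicate 3 libraries lowest (9.62% of all genes), namely Sox18, Foxc2, Gata2 and Tbx1. Foxc2, needed for lymphatic valves, read 3.94, 4.99 and 0.83 under the EGFP-positive label and 3.05, 4.80 and 0.96 under the EGFP-negative label. Its order was that of Flt4 and Lyve1, shared by Sox18 and Tbx1 in this list. Nr2f2, a partner of PROX1 that veins also express, stayed between 6.00 and 7.54. It was the 1 of the 7 with higher, non-overlapping values in the EGFP-positive group, as 3.07% of all genes had. Sox18, whose product switches PROX1 on, had the highest r with Nts of the pair that reached 6 (0.68) and Nr2f2 the lowest (-0.11). By label, 0 of the 7 passed in either direction (limma). At an unadjusted p under 0.05 there were 0, and 1 with the replicate block.

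Among 5 chemokine and scavenger genes, Ackr2 and Stab1 had both replicate 3 libraries lowest. Ackr2, which removes inflammatory chemokines on lymphatic endothelium, read 6.16, 6.90 and 3.04 against 5.45, 6.87 and 3.97, and Stab1, a scavenger receptor also made by macrophages, read 6.97, 7.13 and 4.24 against 7.27, 7.50 and 5.89. The chemokine gene Ccl21a was not analysed here. Of 7 junction and valve genes, Cldn5, a tight junction protein of all endothelium, read 7.54, 7.95 and 3.52 against 6.98, 7.39 and 5.59, and Efnb2, an ephrin of valves and arteries, was the other one with both replicate 3 libraries lowest. Cldn5 had the highest r with Nts of the 4 that reached 6 (0.88) and Gja1, a connexin of many cell types, the lowest (0.63). Gja4, a connexin, was the 1 of the 7 with higher, non-overlapping values in the EGFP-positive group, as 3.07% of all genes had. By label 0 of these 12 genes passed in either direction (limma), and 1, Gja4, had an unadjusted p under 0.05. With the replicate block there was 1 in each of the lists.

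Of 6 genes of the growth factor system around FLT4, 0 had both replicate 3 libraries lowest, which is near the 9.62% of all genes. Vegfc, the main ligand of FLT4, read 5.47, 6.43 and 5.28 under the EGFP-positive label and 5.55, 5.90 and 6.17 under the EGFP-negative label, and Vegfd, the other ligand, read 6.50, 7.19 and 5.56 against 6.43, 6.43 and 6.80. Nrp2, a co-receptor that neurons also use, had the lowest r with Nts among the 4 that reached 6 (-0.78), and Kdr, the VEGF receptor of blood vessels, the highest (0.69). Of 7 genes of the angiopoietin and adrenomedullin systems 0 had both replicate 3 libraries lowest as well, and among the 3 that reached 6 r with Nts ran from -0.08 for Calcrl to 0.68 for Ramp2, which encode parts of the adrenomedullin receptor. By label, 0 of these 13 genes passed and 0 had an unadjusted p under 0.05 (limma).

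Partners of podoplanin and reelin were followed as well. Clec1b, the platelet receptor of podoplanin, stayed between 1.21 and 1.68, and of the 4 genes of its pathway 0 had both replicate 3 libraries lowest, near the share of all genes. Lcp2, a signalling adaptor of blood cells, read 2.04, 1.12 and 1.18 under the EGFP-positive label and 3.18, 6.01 and 4.64 under the EGFP-negative label, the 1 of 4 genes with lower values that did not overlap (6.04% of all genes). By label 0 of the 4 passed (limma, smallest adjusted p = 0.951). At an unadjusted p under 0.05 there were 3, against 4.91% of all genes, and 1 with the replicate block, against 7.39%. The list mean was lower under the EGFP-positive label, at 2.01 against 4.00, as it was for the macrophage and B cell lists below. Of 5 reelin pathway genes, Vldlr, a reelin receptor, read 5.41, 6.09 and 4.53 against 5.90, 6.08 and 5.27, with both replicate 3 libraries lowest and an r with Nts of 0.80. Fyn, a kinase downstream of reelin, was the other one to reach 6 and had an r of -0.61. The adaptor Dab1 stayed between 1.51 and 1.73. None of the 5 passed by label and 0 had an unadjusted p under 0.05 (limma).

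Of 9 receptors and peptidases of neurotensin, 0 had both replicate 3 libraries lowest, near the 9.62% of all genes, and 2, Cpe and Thop1, had both highest. Only Cpe of this pair reached 6, and 13.5% of all genes reaching 6 had both highest. The receptor genes were dim, with Ntsr1 at 1.88 to 2.68 and Ntsr2 at 1.29 to 1.67. Sort1, a sorting receptor that binds neurotensin, read 6.32, 5.82 and 7.21 under the EGFP-positive label and 4.42, 5.75 and 6.32 under the EGFP-negative label. Pcsk1, a convertase of prohormones, read 1.27, 1.35 and 2.91 against 1.48, 1.36 and 1.25, so it exceeded 2 only in EGFP-positive replicate 3. Cpe, a carboxypeptidase that trims peptide precursors, had the lowest r with Nts among the 3 that reached 6 (-0.92) and Pcsk5, another convertase, the highest (0.30). By label 0 of the 9 passed (limma). At an unadjusted p under 0.05 there were 0, and 1 with the replicate block.

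Of 14 markers of blood and all endothelium, 0 had both replicate 3 libraries lowest, against 9.62% of all genes, and the list averaged 6.15, 7.12 and 5.75 under the EGFP-positive label and 6.70, 6.75 and 7.10 under the EGFP-negative label. Its median difference between replicate 3 and the other libraries was -0.42, against 0.01 over all genes. Among the 11 that reached 6 the median r with Nts was 0.36, from -0.76 for Eng to 0.71 for Esam, and 0 had an r of at least 0.8. The difference between lymphatic and blood endothelial genes was not tested, since the lymphatic genes were chosen with these values known.

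Markers of mesothelium, the cell layer that covers the gut, followed the order of Nts. All 8 had both replicate 3 libraries lowest, against 9.21% of genes reaching 6. All 8 had an r with Nts of at least 0.8, against 5.88%, from 0.91 for Krt8 to 0.97 for Krt18. Leaving out the keratins Krt8, Krt18 and Krt19, r ran from 0.92 for Upk3b to 0.97 for Upk1b. The order 1, 2, 3 of Nts under both labels was found for 7 of 8, against 7.58%. That order already requires a low replicate 3 under each label, so these counts are not independent. Of the 92 genes reaching 6 with both replicate 3 libraries lowest and a mean lower by at least 2, 47 had it. The list averaged 9.88, 9.37 and 7.68 under the EGFP-positive label and 9.58, 8.96 and 7.92 under the EGFP-negative label. These markers stayed abundant in replicate 3, where Nts was at background. The part of these cells in the Nts values was not tested.

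Markers of the intestinal epithelium did so in part. Of 7, 5 had both replicate 3 libraries lowest, 4 had an r with Nts of at least 0.8 and 2 had its order of numbers under both labels. Over all genes reaching 6, as these 7 did, the shares were 9.21%, 5.88% and 7.58%. These counts are not independent either, since the order of Nts requires a low replicate 3. The list averaged 8.21, 7.41 and 4.60 against 6.52, 7.21 and 5.67. Krt20, a keratin of surface colonocytes, had the highest r (0.97), and Muc2, the goblet cell mucin, the lowest (0.46), at 10.60, 8.80 and 5.91 against 5.30, 9.20 and 6.94. The part of epithelial cells in the Nts values was not tested.

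Markers of enteroendocrine cells split. Of 10, 5 had both replicate 3 libraries lowest, against 9.62% of all genes, namely Pyy, Gcg, Sct, Insl5 and Neurod1. Pyy and Insl5 had the order 2, 1, 3 under both labels. Only Pyy of this pair reached 6, and 2.1% of genes reaching 6 had that order. The order of Nts was found for 0 of 10, near the 7.58% of genes reaching 6. Pyy, the peptide YY gene, read 5.83, 6.95 and 2.68 under the EGFP-positive label and 2.81, 6.12 and 2.15 under the EGFP-negative label, and Insl5, a hormone gene of colonic endocrine cells, read 2.66, 5.97 and 0.84 against 2.17, 5.69 and 2.10. Gcg, Sct and Neurod1 stayed between 1.05 and 2.62, near background, so nothing is read from their order. Chga, Chgb and Scgn, which neurons can also express, were highest in EGFP-positive replicate 3. Chga was the 1 of 10 with higher, non-overlapping values in the EGFP-positive group, as 3.07% of all genes had. Chgb, a granule protein, read 3.57, 5.04 and 6.40 against 2.93, 4.38 and 3.51. Its r with Nts was -0.47, against 0.66 for Pyy, the other one to reach 6. Chgb reached 6 only in EGFP-positive replicate 3, where Nts was at background, and Pyy only in the replicate 2 libraries. That filter bears on both r, so nothing is read from them. The list averaged 1.87 to 3.21 over the libraries, and the part of these cells in the Nts values was not tested.

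The 14 neuronal markers averaged 3.31, 3.20 and 6.47 under the EGFP-positive label and 3.49, 3.53 and 3.83 under the EGFP-negative label. Their level thus stood apart in EGFP-positive replicate 3 only. Nefl, a neurofilament, read 3.30, 2.78 and 6.79 against 3.47, 3.21 and 5.03, and Stmn2, a growth-associated protein of neurons, read 6.95, 7.12 and 7.77 against 7.06, 7.13 and 6.01. They had the lowest (-0.90) and highest (0.13) r with Nts of the 9 that reached 6. Most of the 9 reached it only in EGFP-positive replicate 3, where Nts was at background, so a negative r was set by that filter and nothing is read from it. The part of neurons in the Nts values was not tested.

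Macrophages and platelets can also carry single lymphatic markers. The 14 macrophage genes averaged 5.98, 3.39 and 2.40 under the EGFP-positive label and 7.52, 7.93 and 6.18 under the EGFP-negative label. Of these, 0 had both replicate 3 libraries lowest, against 9.62% of all genes. The 2 labels lay so far apart that this measure could hardly be met. Within each label the list mean was lowest at number 3. The median difference between replicate 3 and the other libraries was -1.85, against 0.01 over all genes. The order 1, 2, 3 of Nts under both labels was found for 5, C1qa, C1qb, Tyrobp, Aif1 and Lyz2, against 7.58% of genes reaching 6. Among the 12 that reached 6, Csf1r, the receptor of a macrophage growth factor, had the highest r with Nts (0.64) and Cd68, a lysosomal protein, the lowest (0.38). None of the 14 passed by label (limma, smallest adjusted p = 0.951). An unadjusted p under 0.05 was found for 10, against 4.91% of all genes, and lower values that did not overlap for 7, against 6.04%. The part of macrophages in the Lyve1 and Nts values was not tested.

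Of 5 platelet genes, 0 had both replicate 3 libraries lowest, against 9.62% of all genes, and the list averaged 2.23 to 3.64 over the libraries. Pf4, which macrophages can also express, read 7.42, 3.97 and 2.74 against 9.56, 8.44 and 6.88. Ppbp, a platelet chemokine, read 2.59, 3.16 and 4.02 against 3.25, 2.39 and 3.25, and the integrin gene Itga2b stayed at 1.91 to 2.55. The receptor genes Gp9 and Gp6 stayed at 1.34 to 1.75 and 1.11 to 1.49. None of the 5 passed by label and 1 had an unadjusted p under 0.05 (limma). The part of platelets in the Mmrn1 values was not tested.

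The remaining lists were stroma, muscle, glia and B cells. Fibroblast and reticular stroma genes averaged 8.12 to 9.48 over the libraries, with 1 of 8, Dcn, having both replicate 3 libraries lowest. Dcn, a matrix proteoglycan, had the highest r with Nts of the 6 that reached 6 (0.89), and Col1a1, a collagen gene, the lowest (-0.57). Smooth muscle genes averaged 9.59, 9.08 and 11.09 against 10.04, 9.41 and 11.30. All 6 had both replicate 3 libraries highest, against 13.5% of genes reaching 6, with r from -0.99 for Myh11, a myosin, to -0.76 for Cnn1, calponin.

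Enteric glia genes averaged 6.57, 6.40 and 8.55 against 4.90, 6.27 and 5.82. Of 6, S100b and Sox10 had higher values that did not overlap, against 3.07% of all genes. The r with Nts ran from -0.64 for Entpd2, an ectonucleotidase, to -0.40 for Fabp7, a fatty acid-binding protein. Fabp7 reached 6 only in EGFP-positive replicate 3, where Nts was at background, so nothing is read from its r. B and plasma cell genes averaged 1.89, 0.94 and 0.93 against 3.06, 5.65 and 6.67. All 5 had lower values that did not overlap, against 6.04%. Among those reaching 6, r ran from -0.42 for Ms4a1, which encodes CD20, to 0.05 for Jchain, the immunoglobulin joining chain. Ms4a1 reached 6 only in EGFP-negative replicate 3, where Nts was at background, so nothing is read from its r. By label, 0 genes of the stroma, muscle, glia and B cell lists passed (limma), with 1, 0, 2 and 4 at an unadjusted p under 0.05, against 4.91% of all genes. With the replicate block there were 3 in the muscle list, against 7.39%.

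**Figure D4:**
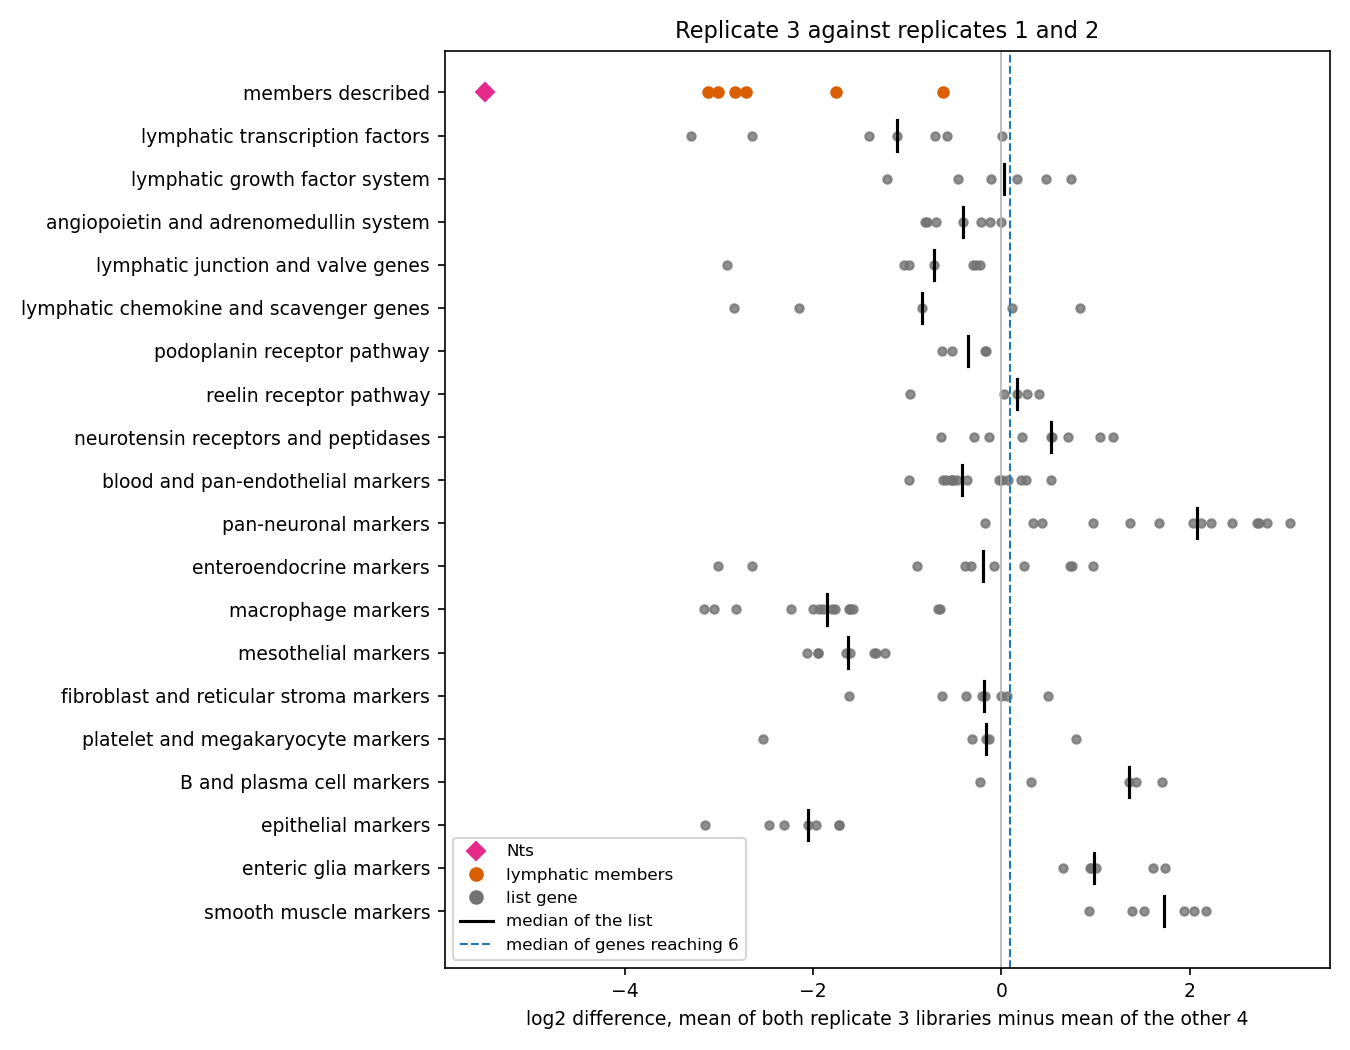
Log2 difference between the mean of both replicate 3 libraries and the mean of the other 4, 1 point per gene, for the 7 genes described and for 19 lists of vessel, peptide and cell type genes; black bars are list medians and the dashed line is the median of genes reaching a log2 value of 6. Nts lies farthest left at -5.49, Lyve1, Flt4, Mmrn1 and Reln lie between -3.12 and -2.72, and the medians of the epithelial, macrophage and mesothelial lists lie at -2.05, -1.85 and -1.63.

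The genes with the highest r with Nts among those reaching a log2 value of 6 were Eci1, Myo5b, Gipc2, Fabp2, Tpcn1, Slc39a8, Chst4, Muc16, Spns2 and Pim3, all with r of 0.98 to 1.00 over 6 libraries. None of them is in the lists used, and lymphatic genes outside those lists were not looked for. Spns2, a transporter gene outside the lists, read 7.67, 7.55 and 6.24 under the EGFP-positive label and 7.91, 7.34 and 6.39 under the EGFP-negative label. Fabp2, the fatty acid-binding protein of enterocytes, read 6.43, 6.51 and 1.75 under the EGFP-positive label and 6.53, 5.70 and 1.72 under the EGFP-negative label. Myo5b, a myosin of apical membrane traffic in epithelia, read 7.16, 6.45 and 3.71 against 7.24, 6.38 and 3.95. Muc16, a membrane mucin of mesothelium and other epithelia, read 7.28, 7.13 and 4.13 against 6.92, 6.73 and 4.43. Slc39a8, a zinc and manganese transporter, and Chst4, a sulfotransferase, were lower by 2.53 and 2.14 in replicate 3. Eci1, a mitochondrial enzyme of fatty acid oxidation, differed by only 0.76 in the same direction, since r takes no account of size.

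The genes nearest to the mean of the 6 lymphatic genes were different ones. They were Ackr2, Rapgef5, Klhl4, Slc45a3 and Il7, with r of 0.98 to 0.99 with that mean and 0.77 to 0.88 with Nts. Il7, a lymphocyte growth factor, read 4.85, 6.94 and 2.05 under the EGFP-positive label and 4.45, 6.07 and 3.33 under the EGFP-negative label. Klhl4, a kelch family gene, read 6.84, 8.36 and 4.45 against 7.10, 7.80 and 5.89. In all 5 replicate 2 was highest and replicate 3 lowest under both labels.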

How the data were processed

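Cells sorted from the mouse colon were profiled on 1-colour Affymetrix Mouse Genome 430 2.0 arrays from about 50 ng of total RNA, per the labels' protocols. The authors deposited log2 values; RMA is named in the submitters' processing notes, with neither version nor settings. Columns had medians of 1.91 to 1.99 and values down to 0.05, which is low for RMA, so dim genes were not ranked. The number of arrays limits the precision.

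Of 45101 probe sets, 34945 had 1 gene symbol in the platform annotation, 932 had several, 9160 had none and 64 were controls. The probe set with the highest mean stood for each of 18193 genes. The label comparison used limma 3.58.1 under R 4.3.3 (lmFit, eBayes, two-sided, Benjamini-Hochberg, threshold 0.05), and replicate numbers with its F test, keeping the label in the model. Figures used Python 3.11.15 and matplotlib 3.10.9. P-values of the label fit without a block reflect the spread between libraries of the same label. Those of the block fit and of the F test reflect the spread left after label and number. Members, the 19 lists, motifs and alternatives were chosen with earlier results of these data known. The rule for named genes took all members, of each list the genes with the highest and lowest r with Nts, and the nearest 10 and 5 genes; others were named after their values were seen. Same-numbered libraries deviated together in all 3 pairs, which is the source of the pairing. Of the list genes, 7 were not analysed here.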

Additional observations from a re-analysis of the deposited data

How the results depend on the processing

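Both replicate 3 libraries lay below the other 4 for 6 of 7 members with arrays centred on the median or on the ribosomal protein genes, after quantile normalisation and with the mean of all probe sets of a gene, settings added after seeing the data. With mean probe sets, which bring in dim ones, the replicate 3 differences came to -1.60 for Flt4, -1.82 for Mmrn1, -1.40 for Reln and -0.78 for Prox1, against -3.01, -3.12, -2.83 and -1.76. The replicate block gave 0 genes by label, as the fit without it did, and changed no call. Genes called by label numbered 0 to 2 when 1 library was left out, the 2 without EGFP-positive replicate 1, and members called 0 throughout. Differences between replicate numbers were called for 216 genes with median centring, 5 without the EGFP label in the model, 1 with mean probe sets and 1 among genes above the median level, against 0. Lymphatic members with an r with Nts of at least 0.8 numbered 4, but 0 with Spearman's rho, 2 with centring on the ribosomal protein genes, 0 without the 2 replicate 3 libraries and 1 to 5 with 1 library left out, the 1 without EGFP-positive replicate 3; without EGFP-negative replicate 3 it was 2. Without both, r turned to -0.95 for Flt4, -0.99 for Reln, -0.87 for Mmrn1, -0.90 for Lyve1 and -0.20 for Prox1, over only 4 libraries. The Prox1 label difference was 0.37 with mean probe sets. Label differences turned to 0.11 for Nts, 0.014 for Mmrn1 and 0.26 for Reln with centring on the ribosomal protein genes. With 1 library left out they ran from -2.08 to 1.58 for Nts, -1.34 to 0.81 for Flt4, -1.51 to 0.62 for Lyve1, -1.45 to 0.87 for Mmrn1, -1.08 to 1.12 for Reln, 0.38 to 1.65 for Prox1 and -0.022 to 0.52 for Pdpn, the turns coming with fewer samples and unbalanced numbers.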

Other observations

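The 92 genes that reached a log2 value of 6, had both replicate 3 libraries below the other 4 and had a mean lower by at least 2 include 5 of the members and some genes of the lists. Of the 92, 47, counting Nts, had the order of numbers seen in Nts under both labels and 18, counting Flt4, Lyve1, Mmrn1 and Reln, that of Flt4 and Lyve1. The first set held Guca2a, the guanylin gene of colonic epithelium, at 8.64, 7.40 and 3.66 under the EGFP-positive label and 7.77, 7.46 and 4.92 under the EGFP-negative label. It also held Prg4, the lubricant protein of joint and serosal surfaces, at 6.85, 5.84 and 2.24 against 7.93, 6.39 and 3.04. The second set held Retnlb, a goblet cell protein, at 2.88, 6.61 and 0.49 against 2.42, 6.60 and 1.24, and Retn, resistin, at 2.12, 6.79 and 1.06 against 3.03, 8.57 and 1.76. Ang4, an antimicrobial ribonuclease of the gut, read 2.19, 6.13 and 0.34 against 1.54, 5.97 and 0.28. These genes were chosen after their values were seen.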
